A study of Mus musculus with 172 samples.

Results

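The 10 genes that make, break down and regulate the polyamines in the mouse were described here across the single cells of OCT4-null and control inner cell masses (ICMs). They are 10 of the 49671 genes counted in each cell. They were chosen by name as pathway members, with earlier results on these same cells in view, and Sat1 was set against the others on its measured levels in the 5 groups below. The differences of Sat1 are therefore given as a description, with levels, fold changes and errors but no test.

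Polyamines (putrescine, spermidine and spermine) are small positively charged molecules that bind RNA and DNA and are needed for translation and growth. Ornithine decarboxylase (Odc1) makes putrescine, spermidine synthase (Srm) and spermine synthase (Sms) lengthen it, and spermidine/spermine N1-acetyltransferase (Sat1) acetylates the products so that they are exported or oxidized back. Antizymes (Oaz1, Oaz2) bind ornithine decarboxylase and send it to the proteasome, and antizyme inhibitor 1 (Azin1) binds the antizymes in its place.

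Embryos came from natural inter se matings of Oct4+/- mice on a mixed genetic background, so the mutants (MUT, Oct4-/-) and the controls (WT, and HET, Oct4+/-) come from the same crosses. The outer trophectoderm (TE) was lysed by immunosurgery and used for genotyping, and the freed ICM was taken apart into single cells, each of which became a Smart-seq2 library, a full-length cDNA library without molecular identifiers. At E3.5, the mid blastocyst, there were 58 WT/HET cells from 7 embryos (5 WT, 2 HET) and 29 MUT cells from 4 embryos. At E4.5, the late blastocyst, 6 control embryos (2 WT, 4 HET) gave 37 cells that the authors assigned to the epiblast (EPI) and 29 assigned to the primitive endoderm (PrE) from their transcriptomes, and 2 MUT embryos gave 19 cells.

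A cell held 363819 to 4644070 gene counts, with a median of 1488917, and the cells of an embryo were summed because they are not independent replicates. CPM below are counts per 1000000 of such a sum, adjusted by the trimmed mean of M values (TMM), and are relative values, so a change in the RNA content of a whole cell cannot be seen. The deleted gene, Pou5f1, lay at 199 to 435 CPM in E3.5 WT/HET and 2.74 to 5.93 CPM in E3.5 MUT embryos, and had 0 counts in both E4.5 MUT embryos. By the plate and lane names in the deposited files' names, all E3.5 cells were on one plate and all E4.5 cells on another, so stage and plate cannot be told apart, and levels at the 2 stages are set side by side without a test. The cells labelled EPI and PrE carried their markers, with 10 EPI markers summing to 2281 to 3772 CPM in EPI against 173 to 402 CPM in PrE. The 11 TE markers summed to 3861 and 4993 CPM in the E4.5 MUT embryos, against 41.3 to 111 CPM in EPI and 104 to 492 CPM in PrE, where Elf5 and Krt7 had 0 counts. Most of this MUT sum was Krt8 (1651 and 2333 CPM) and Krt18 (1311 and 1913 CPM). Gata3 lay at 212 and 235 CPM, Elf5 at 6.76 and 17.3 CPM and Cdx2 at 0 and 22.9 CPM. The EPI markers summed to 498 and 1179 CPM in the E4.5 MUT embryos, with Nanog at 386 and 647 CPM and Gdf3 and Nodal at 0 counts. The 10 PrE markers summed to 463 and 672 CPM in these embryos, against 5.76 to 74 CPM in EPI and 2759 to 6299 CPM in PrE. The E4.5 MUT embryos thus held markers of all 3 kinds. At E3.5 the TE markers summed to 660 to 1324 CPM in MUT and 216 to 838 CPM in WT/HET. The means in MUT and WT/HET were 196 and 198 CPM for Krt8, 172 and 10.2 CPM for Gata3 and 70.3 and 105 CPM for Tfap2c. The part of this TE expression in the results below was not tested.

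At E4.5, Sat1 was about as high in MUT embryo sums as at E3.5 and low in both control lineages, while Srm was lower in MUT than in either lineage. Counts at E3.5 and between EPI and PrE include Sat1, from which nothing is read. Its calls are left out of the E4.5 MUT comparisons and the interaction, since it was set against the others on these levels. At E3.5 none of the 10 genes passed the test between MUT and WT/HET embryos (edgeR quasi-likelihood test, Benjamini-Hochberg adjusted p under 0.05 over all genes tested), where 6.18% of 12075 genes did. Of these 10, 4 had an unadjusted p under 0.05, as did 2588 of the 12075 genes. DESeq2 called 2 (Paox and Oaz2, the latter higher in MUT), beside 13.3% of all genes. With cells weighted equally, limma called 2 (Paox and Azin1, both lower), beside 11.2% of all genes. At E4.5, MUT against EPI called, Sat1 aside, only Srm, lower, beside 4.92% of 12953 genes. MUT against PrE called, Sat1 aside, Sms, higher, and Srm and Odc1, both lower, beside 3.81% of 12246 genes. EPI against PrE called 3 of the 8 that passed the filter on low counts, with Sms and Oaz2 higher and Odc1 lower in EPI, beside 9.81% of 9762 genes. The change of the MUT effect from E3.5 to E4.5 was tested as an interaction on sums over whole ICMs. Sat1 aside, it called only Srm, downward, beside 5.46% of 16410 genes. The comparisons against EPI and PrE use the same 2 MUT embryos and are not independent of each other. Median log2 fold changes of the 10 genes were -0.20 at E3.5, -0.12 against EPI and 0.17 against PrE, with medians of -0.02, -0.03 and 0.05 over all genes tested, so the group did not move one way.

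**Figure D1:**
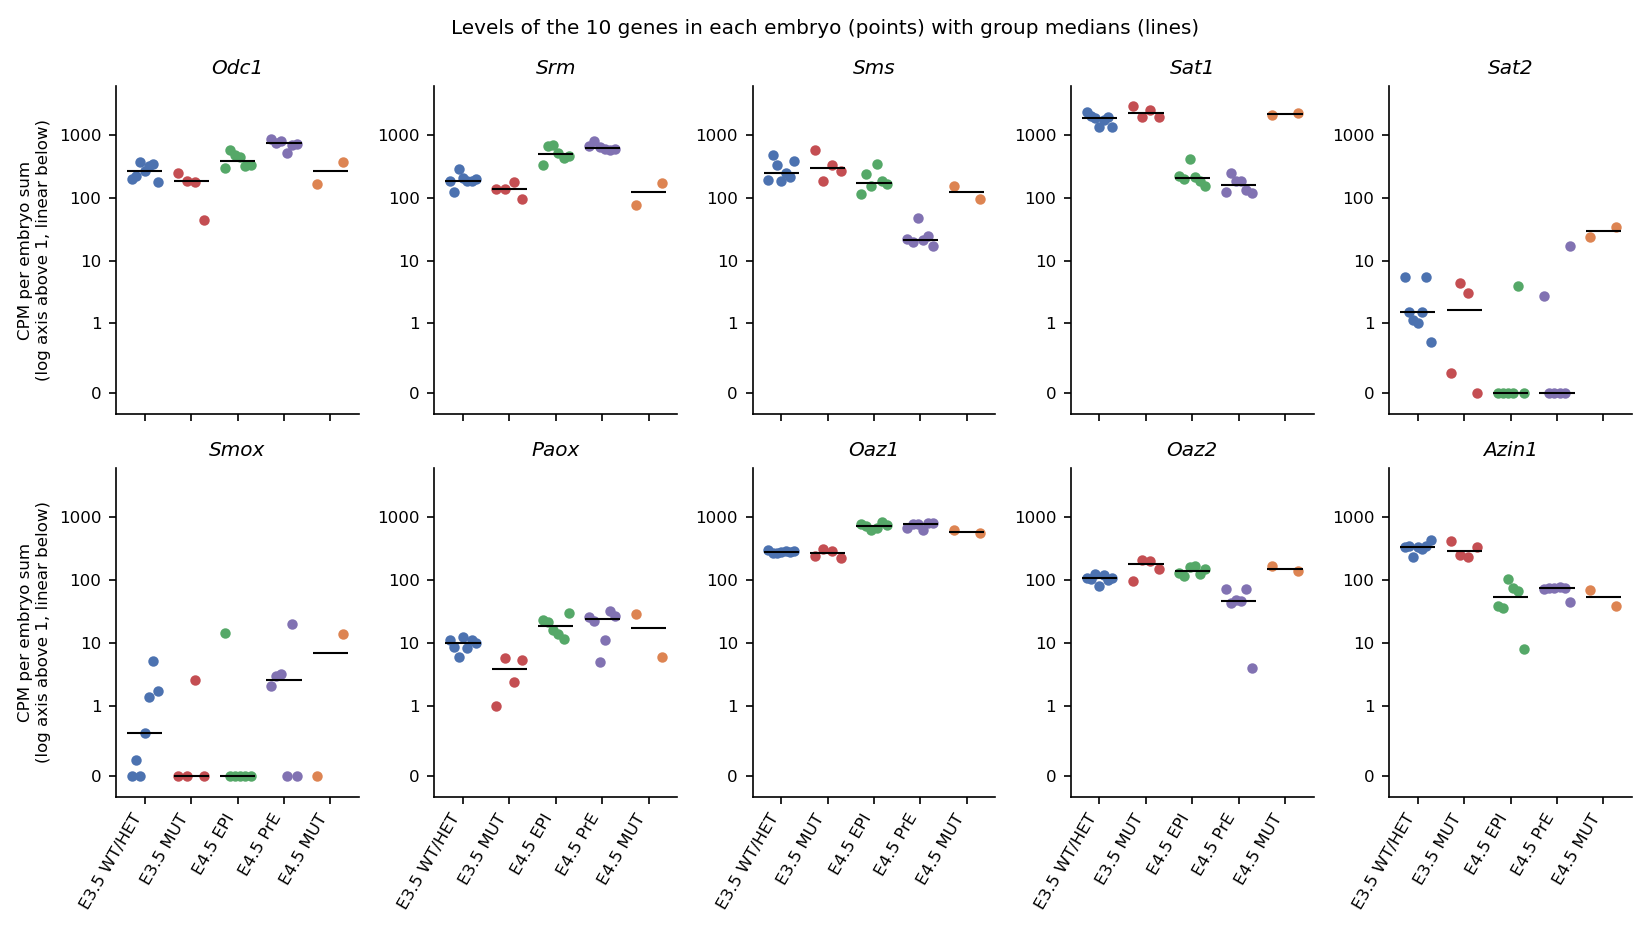
Level of each of the 10 genes in CPM (vertical axis, logarithmic above 1 and linear below) in the 5 groups; each point is the sum over the cells of 1 embryo and each line the group median. Sat1 lies at 2089 and 2242 CPM in the E4.5 MUT embryos, above all EPI and PrE sums, and Srm lies at 75.7 and 174 CPM, below all of them.

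Levels were compared between genes per length, as FPKM (counts per kb of summed exon length per 1000000 gene counts). Sat1 had the highest FPKM of the 10 in E3.5 WT/HET (627 ± 113, SD, n = 7), E3.5 MUT (732 ± 127, n = 4) and E4.5 MUT (784 ± 35, n = 2). In EPI and PrE it came after 3 others, at 90.9 ± 37.2 and 61.3 ± 16.6 FPKM (n = 6 each), below Srm (351 and 415), Oaz1 (309 and 304) and Odc1 (129 and 218). The order of the 10 genes thus differed between the E4.5 MUT embryos and both control lineages, and Sat1 was at its top in the MUT embryos, as at E3.5. Among all genes with counts, ranked by mean FPKM, Sat1 was number 50 in E3.5 WT/HET, 51 in E3.5 MUT and 46 in E4.5 MUT, but 725 in EPI and 1031 in PrE. Smox had the lowest FPKM of the 10 in E3.5 WT/HET, E3.5 MUT, PrE and E4.5 MUT, and Sat2 the lowest in EPI.

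Sat1 (ENSMUSG00000025283, chromosome X, 155213132 to 155216449, minus strand, GRCm38) is the rate-limiting enzyme of polyamine breakdown. Its promoter is shown because its values span the widest range of the 10 in absolute CPM. In the stretch of 250 bases before to 50 after the start of the RefSeq transcript (chrX:155216400-155216699, minus strand, GRCm38.p6), capitals mark the GC box GGGCGG on either strand.
Sat1: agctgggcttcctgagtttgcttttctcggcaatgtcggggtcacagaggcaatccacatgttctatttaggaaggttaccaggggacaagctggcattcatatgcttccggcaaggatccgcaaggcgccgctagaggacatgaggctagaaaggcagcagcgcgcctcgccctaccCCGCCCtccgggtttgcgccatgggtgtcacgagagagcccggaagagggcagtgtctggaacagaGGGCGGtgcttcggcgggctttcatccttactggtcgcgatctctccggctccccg
The same kind of window of Sms (chrX:157492238-157492537, minus strand), the other X-linked member, held the one E-box, CACGTG, found among the members, in capitals.
Sms: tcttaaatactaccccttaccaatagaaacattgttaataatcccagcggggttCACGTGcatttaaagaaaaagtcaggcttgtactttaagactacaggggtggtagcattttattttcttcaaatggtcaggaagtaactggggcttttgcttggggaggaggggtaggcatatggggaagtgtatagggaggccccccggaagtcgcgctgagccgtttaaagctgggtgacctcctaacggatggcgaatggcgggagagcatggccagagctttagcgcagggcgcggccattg
RefSeq windows were matched for 8 of the 10 genes, in 10 windows, since Paox has a pair that overlap each other and Sms a pair that do not, and Srm and Azin1 had no entry. On both strands, the E-box, the letters that MYC and its relatives bind, was in 1 of these 10 windows and in 7.15% of 32851 windows of all genes. The octamer ATGCAAAT, the letters that OCT4 and other POU factors bind, was in 0 of the 10 and in 1.74% of all. The GC box was in 7 of the 10, both overlapping Paox windows included, which are 6 of the 8 genes, and in 35.7% of all. Sites outside these windows, such as those in introns more than 50 bases past the start, were not searched. Srm, Sat1, Sat2 and Smox share no stretch of 125 bases or more at 97% identity with another gene, so their reads are not split with a copy. Odc1 shares 49.8% of its transcript with such copies, Sms 29.6%, Paox 29.2%, Oaz1 27.4% and Oaz2 25.6%, and for these 5 reads that align to more than 1 place are missing from the counts, which makes their levels less certain. Azin1 overlaps Gm49077, a gene on the other strand at the same locus, over 358 exon bases, and read pairs assigned to more than 1 gene were left out.

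Across embryos, Sat1 lay at 1352, 1356, 1714, 1881, 1930, 1983 and 2316 CPM in the 7 E3.5 WT/HET embryos and at 1922, 1928, 2496 and 2868 CPM in the 4 E3.5 MUT embryos. In E4.5 EPI it lay at 154, 184, 202, 214, 224 and 420 CPM and in PrE at 121, 122, 134, 185, 186 and 246 CPM. The 2 E4.5 MUT embryos had 2089 and 2242 CPM, inside the range of both E3.5 groups and above every EPI and PrE sum. The groups fall in the order E3.5 MUT, E4.5 MUT, E3.5 WT/HET, EPI and PrE by their means, the first 3 overlapping each other, EPI and PrE overlapping each other, and no sum of the first 3 groups overlapping the last 2. The fitted log2 fold change of Sat1 was 3.19 (SE 0.30) for MUT against EPI and 3.72 (SE 0.25) for MUT against PrE, against 0.39 (SE 0.18) for MUT against WT/HET at E3.5 and 0.50 (SE 0.26) for EPI against PrE. The MUT effect was larger at E4.5 than at E3.5 by 2.98 (SE 0.31) on the log2 scale. The fitted values against EPI ran from 3.14 to 3.48, and those against PrE from 3.65 to 3.87, over the alternatives and the fits without 1 embryo.

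Single cells overlapped more than the embryo sums did. At least 1 Sat1 count was present in all 58, 29 and 19 cells of E3.5 WT/HET, E3.5 MUT and E4.5 MUT, in 36 of 37 EPI cells (97.3%) and in 28 of 29 PrE cells (96.6%), and with cells thinned to 600000 gene counts the EPI and PrE shares were the same. The control lineages at E4.5 thus held Sat1 RNA in most cells, at a lower level. The median cell had 1557 CPM in E3.5 WT/HET, 1950 CPM in E3.5 MUT, 179 CPM in EPI and 180 CPM in PrE. In E4.5 MUT the median was 1040 CPM, with quartiles of 794 and 3559 CPM and cells from 462 to 6014 CPM, so the median MUT cell lay below the lower quartiles of E3.5 WT/HET (1176 CPM) and E3.5 MUT cells (1455 CPM). Of the 19 E4.5 MUT cells, 18 lay above the highest PrE cell (474 CPM) and 9 above the highest EPI cell (1199 CPM). Cut at the largest ratio between neighbouring cells, they gave a lower set of 10 cells at up to 1040 CPM and an upper set of 9 from 1939 CPM. Both sets held cells of both embryos. Such a cut divides any group of cells, and whether the sets are separate populations was not tested.

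**Figure D2:**
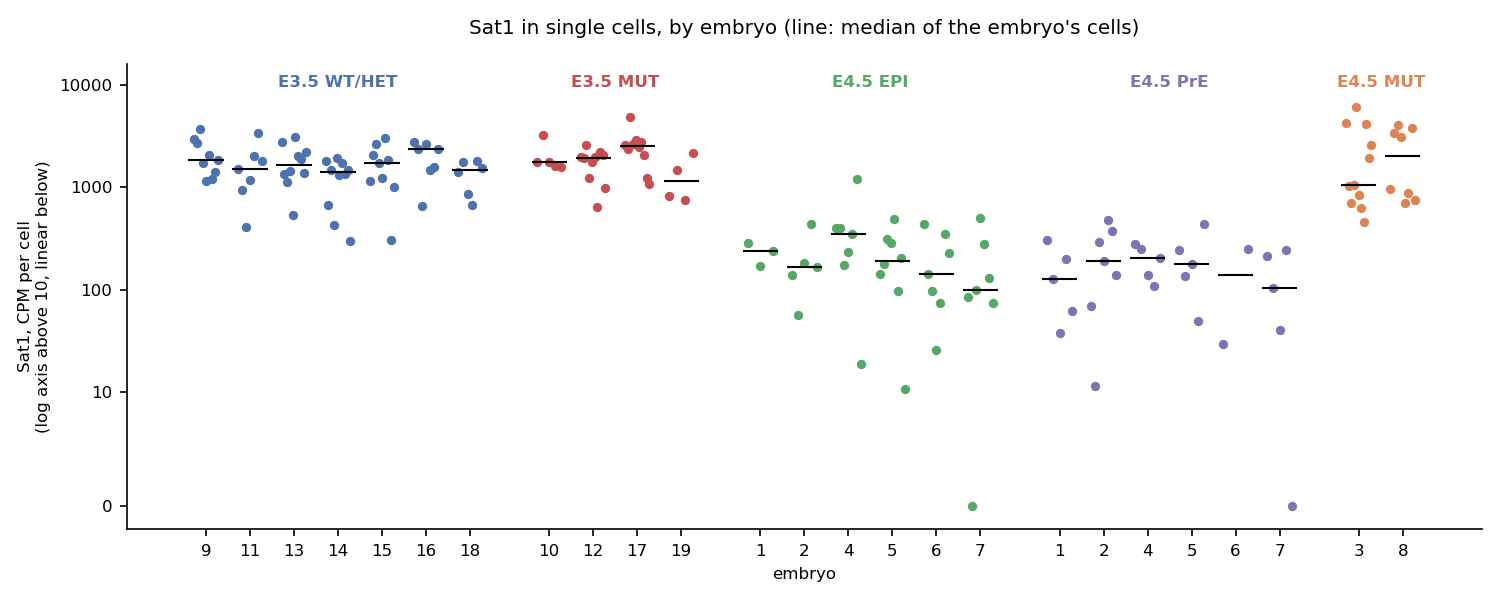
Sat1 in CPM per cell (vertical axis, logarithmic above 10 and linear below) for each cell (point) of each embryo (horizontal axis), coloured by group, with the median of the embryo's cells as a line. E4.5 MUT cells lie between 462 and 6014 CPM with a median of 1040 CPM, beside medians of 1557 and 1950 CPM in E3.5 WT/HET and MUT cells and of 179 and 180 CPM in EPI and PrE cells.

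Sat1 and the TE marker sum are given side by side for the 19 E4.5 MUT cells, as a description, since they come from 2 embryos. In the embryo sums of these cells, Krt8 and Krt18 made up most of the TE marker sum. The highest TE marker sum among EPI and PrE cells was 1801 CPM, in 1 PrE cell, and 7 of the 19 MUT cells lay at or below it. These 7 cells had Sat1 at 704 to 6014 CPM with a median of 3368 CPM. The other 12 cells, with TE marker sums of 1838 to 14199 CPM, had Sat1 at 462 to 4243 CPM with a median of 916 CPM. The next highest control cell had 927 CPM of TE markers, and the 3 MUT cells at or below that had 1040, 3368 and 3749 CPM of Sat1. Srm had medians of 109 CPM in the 7 and 83.8 CPM in the 12 cells, and Odc1 of 141 and 208 CPM.

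**Figure D3:**
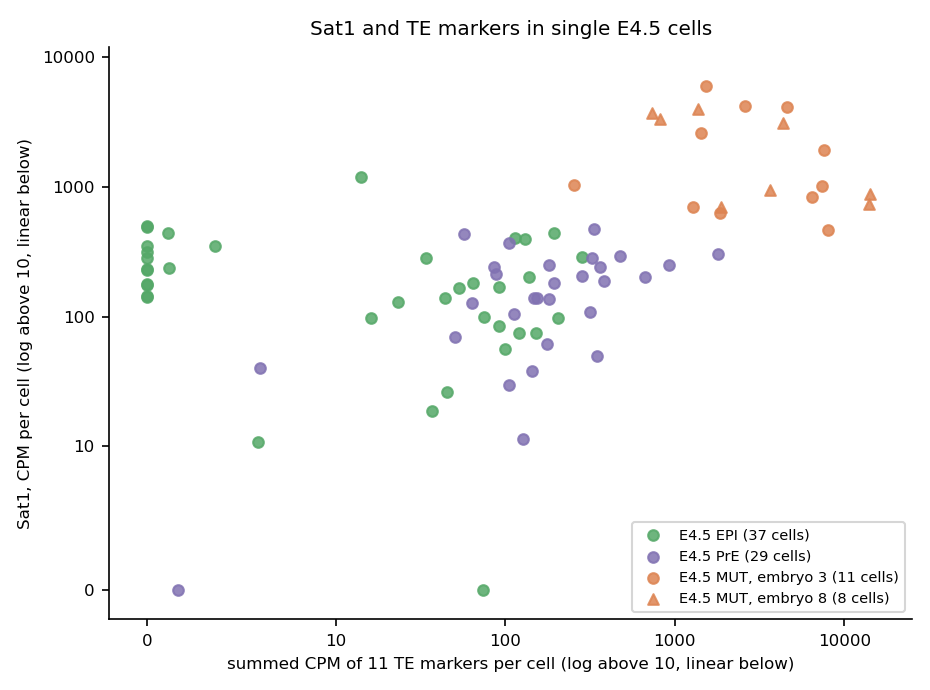
Sat1 per cell (vertical axis, CPM) against the summed CPM of 11 TE markers in the same cell (horizontal axis) for the E4.5 cells, both axes logarithmic above 10 and linear below; circles and triangles separate the 2 MUT embryos. The MUT cells lie above most EPI and PrE cells at low and at high TE marker sums, and those with 1801 CPM of TE markers or less reach 6014 CPM of Sat1.

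Sat1 and Sms are X-linked, and their values are therefore also given by the level of a Y-linked gene in the embryo. The Y-linked Eif2s3y lay at 0 to 1.38 CPM in embryos 10 and 17 (E3.5 MUT), 13 and 18 (E3.5 WT), 3 (E4.5 MUT) and 5 (E4.5 WT) and at 35 to 221 CPM in all others. Of the 2 E4.5 MUT embryos, embryo 3, with Eif2s3y at 0 CPM, had 2089 CPM of Sat1. Embryo 8, with Eif2s3y at 45.5 CPM, had 2242 CPM. Control embryo 5 had 214 CPM in EPI and 186 CPM in PrE, inside the range of the 5 other control embryos. The part of sex in the E4.5 values was not tested, since embryos 3 and 8 are the only MUT embryos of their kind. Among E3.5 embryos, those low in Eif2s3y had 1352 and 1881 CPM (WT) and 2496 and 2868 CPM (MUT) of Sat1, the latter above the other MUT embryos. The part of sex in the E3.5 values was not tested.

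Ratios of Sat1 to other members within a sum depended on the member. The FPKM ratio of Sat1 to Srm was 3.83 to 9.12 in E3.5 WT/HET, 8.03 to 11.8 in E3.5 MUT and 7.42 and 15.9 in E4.5 MUT. In EPI it was 0.175 to 0.391 and in PrE 0.107 to 0.179, so that Srm exceeded Sat1 in every control sum of E4.5 and in no other. Sat1 to Odc1 gave 6.16 to 14.4 in E3.5 WT/HET, 12.6 to 53.4 in E3.5 MUT, 7.43 and 15.6 in E4.5 MUT, 0.434 to 1.06 in EPI and 0.176 to 0.443 in PrE. Against Oaz1, Sat1 stood at 4.33 to 7.13, 5.59 to 10.8, 3.04 and 3.73, 0.190 to 0.626 and 0.137 to 0.290 in the same groups, with E4.5 MUT below every E3.5 sum. The ratio to Sms was 29.8 and 50.3 in E4.5 MUT, above 7.72 to 26.7 in E3.5 WT/HET and 11 to 22.4 in E3.5 MUT, and it was 1.35 to 6.02 in EPI and 8.34 to 27.3 in PrE, where Sms was itself low. To Azin1 the ratio was 68.2 and 131 in E4.5 MUT, above 7.13 to 23.9 in all E3.5 sums, 6.12 to 43.3 in EPI and 3.75 to 7.52 in PrE. To Oaz2 it was 13.6 and 17.5 in E4.5 MUT and 9.85 to 32.1 in the E3.5 sums, beside 1.11 to 2.77 in EPI and 1.81 to 33 in PrE. With the longest transcript as the length, the mean log2 ratio of Sat1 to Srm moved from -1.98 to -1.20 in EPI and from -2.80 to -2.02 in PrE, still below 0.

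**Figure D4:**
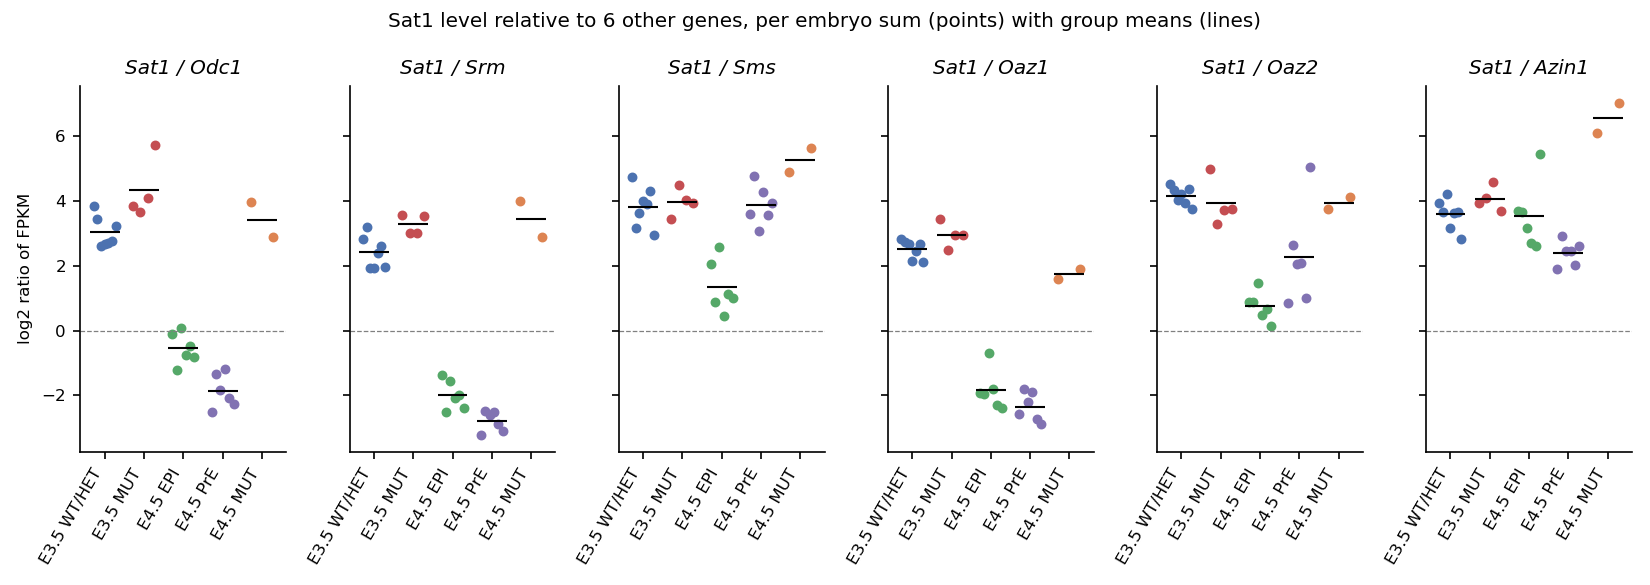
Log2 ratio of the FPKM of Sat1 to that of Odc1, Srm, Sms, Oaz1, Oaz2 and Azin1 (vertical axis) in each embryo sum (points) of the 5 groups, with group means as lines and equal levels at the dashed line. For Srm the means are 2.41, 3.28 and 3.44 in E3.5 WT/HET, E3.5 MUT and E4.5 MUT, and -1.98 and -2.80 in EPI and PrE.

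Srm (ENSMUSG00000006442, chromosome 4, 148591503 to 148594993, plus strand) joins an aminopropyl group to putrescine to give spermidine. Among the enzymes of synthesis, Srm alone was called between MUT and both E4.5 control lineages. It lay at 75.7 and 174 CPM in the 2 E4.5 MUT embryos, at 330, 421, 468, 524, 667 and 703 CPM in EPI and at 571, 594, 607, 650, 656 and 791 CPM in PrE. Both MUT embryos lay below every control sum. MUT was lower than EPI by a log2 fold change of -2.08 (SE 0.41, adjusted p = 0.0205) and lower than PrE by -2.36 (SE 0.33, adjusted p = 0.00479), in 2 of 2 embryos. Without embryo 3, which leaves 1 MUT embryo that is assumed to vary like the controls, Srm against EPI was -1.60 with an adjusted p of 0.141 and was no longer called. With the 2 WT embryos as the only controls, neither Srm difference was called, at -1.97 against EPI (adjusted p = 0.149) and -2.27 against PrE (adjusted p = 0.175). At E3.5 Srm lay at 125 to 283 CPM in WT/HET (median 187) and at 96.3, 138, 140 and 178 CPM in MUT, overlapping, with a log2 fold change of -0.48 (SE 0.21, adjusted p = 0.220). The MUT effect differed between the stages by -1.79 (SE 0.39, adjusted p = 0.0104), an adjusted p that was 0.102 without embryo 3 and 0.114 with WT controls alone. In single cells, 14 of 19 E4.5 MUT cells lay below the lowest EPI cell (144 CPM), 18 below the lowest PrE cell (289 CPM), and 3 of the 19 had no Srm count.

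Odc1 (ENSMUSG00000011179, chromosome 12, 17544794 to 17551505, plus strand), the rate-limiting enzyme of synthesis, was highest in PrE. It lay at 514, 685, 714, 756, 809 and 853 CPM in PrE, at 295, 318, 333, 445, 485 and 572 CPM in EPI and at 164 and 370 CPM in E4.5 MUT. The MUT values lay below all PrE values, while 370 CPM lay within the EPI range. EPI was lower than PrE by -0.82 (SE 0.19, adjusted p = 0.0105) although 1 EPI value exceeded 1 PrE value, and the call held with each embryo left out but not with WT controls alone (adjusted p = 0.428). MUT was lower than PrE by -1.42 (SE 0.33, adjusted p = 0.0439), but this call was lost with any of embryos 1, 2, 3, 4, 6 or 7 left out, at adjusted p of 0.0727, 0.0865, 0.265, 0.0832, 0.0567 and 0.0754, and also with DESeq2 size factors (0.0513) and WT controls alone (0.273). Odc1 against EPI gave -0.64 (SE 0.36, adjusted p = 0.365) with an interval of -1.35 to 0.07. At E3.5 Odc1 lay at 175 to 375 CPM in WT/HET (median 262) and at 44.4, 178, 187 and 246 CPM in MUT, where embryo 19 was lowest, and the difference of -0.70 (SE 0.37) had an adjusted p of 0.303.

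Sms (ENSMUSG00000071708, chromosome X, 157443855 to 157492287, minus strand), which makes spermine from spermidine, was lowest in PrE. It lay at 17, 19.5, 20.9, 21.7, 24.4 and 48.0 CPM in PrE and at 116, 151, 165, 182, 238 and 342 CPM in EPI. E4.5 MUT embryos had 96.5 and 152 CPM, above all PrE values. EPI exceeded PrE by 2.99 (SE 0.33, adjusted p = 5.3e-05), and MUT exceeded PrE by 2.31 (SE 0.46, adjusted p = 0.0247). The second call was lost without embryo 2, 3 or 8, at adjusted p of 0.0601, 0.265 and 0.0797. With WT controls alone both calls were lost, at 0.169 for EPI and 0.175 for MUT. MUT against EPI was not called at -0.71 (SE 0.42, adjusted p = 0.377), with an interval of -1.53 to 0.11. Sms had a count in 22 of 29 PrE cells (75.9%) and in all 37 EPI cells, and 12 of 19 E4.5 MUT cells lay above the highest PrE cell (93.9 CPM). At E3.5 it lay at 184 to 477 CPM in WT/HET and 186 to 567 CPM in MUT, and the difference of 0.26 (SE 0.33) was not called (adjusted p = 0.717). The 4 E3.5 embryos low in the Y-linked Eif2s3y had 328, 329, 379 and 567 CPM, and the other 7 had 184 to 477 CPM.

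The other genes of breakdown were near the limit of detection. Sat2, a relative of Sat1, had 0 counts in 5 of 6 EPI sums and 4 of 6 PrE sums, with single values of 3.96 CPM in EPI and 2.77 and 17.3 CPM in PrE. The E4.5 MUT embryos had 23.5 and 34.6 CPM, above all of these, and 9 of 19 MUT cells (47.4%) held a count, against 1 of 37 EPI cells (2.70%) and 2 of 29 PrE cells (6.90%). Neither difference was called, at adjusted p of 0.241 and 0.585, and both were called with cells weighted equally (limma, adjusted p of 0.00223 and 0.0241). Sat2 in E3.5 embryos lay at 0 to 5.57 CPM.

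Paox, the oxidase that acts on acetylated polyamines, lay at 5.97, 8.40, 8.66, 10.1, 11, 11.3 and 12.5 CPM in E3.5 WT/HET and at 1.01, 2.39, 5.35 and 5.87 CPM in E3.5 MUT. The 4 MUT embryos lay below all 7 controls, at -1.39 (SE 0.52, adjusted p = 0.130), which was not called by edgeR and was called by DESeq2 (adjusted p = 0.0302). A Paox count was found in 47 of 58 WT/HET cells (81.0%) and 11 of 29 MUT cells (37.9%), and in 75.9% and 33.3% after thinning to 600000 gene counts, from which 4 and 2 shallower cells were left out. At E4.5 Paox was not called, at 5.96 and 28.7 CPM in MUT against 11.7 to 29.5 CPM in EPI and 4.99 to 31.9 CPM in PrE. Smox, which oxidizes spermine back to spermidine, had 0 to 20.2 CPM in any sum and a count in 6.90% to 20.7% of cells in the groups other than EPI (5.41%), and no difference was called.

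The antizymes carry a frameshift site that senses polyamines, at which ribosomes slip past the stop codon of the first reading frame, and RNA counts do not measure that step. The 60 bases around it were read from GENCODE M21 transcripts of Oaz1 (chr10:80828268-80828327) and Oaz2 (chr9:65686245-65686304), both plus strand in GRCm38. All 60 bases of Oaz1 and 59 of Oaz2 lay in coding sequence annotated for the gene. Capitals mark the serine codon and stop codon TCCTGA.
Oaz1: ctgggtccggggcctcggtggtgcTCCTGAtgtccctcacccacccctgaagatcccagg
Oaz2: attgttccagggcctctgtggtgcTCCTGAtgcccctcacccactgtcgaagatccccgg
These stretches are identical at 49 of 60 bases. Oaz1 varied little among the embryos of a group, at 271 to 299 CPM in E3.5 WT/HET and 229 to 317 CPM in E3.5 MUT. At E4.5 it lay at 618 to 827 CPM in EPI (median 735), 636 to 817 CPM in PrE (median 780) and 554 and 634 CPM in MUT. Oaz1 was thus higher in all E4.5 sums, MUT included, than in any E3.5 sum. In the median cell, 38.81% (E3.5 WT/HET) and 41.11% (E3.5 MUT) of read pairs aligned to more than 1 place. In the E4.5 groups this share was 19.7% to 24.93%. The part of such lost reads in the Oaz1 levels was not tested. No difference within a stage was called, and the MUT fold changes were -0.04 (interval -0.27 to 0.20) at E3.5 and -0.33 (interval -0.66 to 0.01) against EPI and against PrE. Every cell of every group had an Oaz1 count.

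Oaz2, the second antizyme, was lowest in PrE. Its PrE values were 3.95, 42.6, 47.0, 47.7, 71.0 and 72.8 CPM, beside 118, 125, 130, 149, 163 and 166 CPM in EPI and 138 and 166 CPM in E4.5 MUT. EPI exceeded PrE by 1.59 (SE 0.46, adjusted p = 0.0415), without overlap, and with embryo as a replicate block the adjusted p was 0.0775. That call was also lost without embryo 1, 2, 4, 5 or 6, at adjusted p of 0.0580, 0.113, 0.128, 0.127 and 0.0590, with no filter on low counts (0.0620) and with WT controls alone (0.228). Oaz2 in MUT exceeded all PrE values but was not called (1.69, SE 0.71, adjusted p = 0.270), and against EPI it was 0.07 (interval -0.41 to 0.55). At E3.5 Oaz2 lay at 79.3 to 124 CPM in WT/HET and at 96.4, 153, 202 and 210 CPM in MUT, with 0.65 (SE 0.20, adjusted p = 0.0730), and without embryo 10, the lowest MUT embryo, the adjusted p was 0.0161.

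Azin1, which frees ornithine decarboxylase from antizyme, went the other way between the stages. It lay at 230 to 428 CPM in E3.5 WT/HET, 236 to 423 CPM in E3.5 MUT, 8.03 to 105 CPM in EPI, 44.3 to 76.7 CPM in PrE and 38.5 and 69.1 CPM in E4.5 MUT. All E4.5 sums, MUT included, were below all E3.5 sums, which sets Azin1 apart from Sat1, whose E4.5 MUT values lay at the E3.5 level. Within a stage Azin1 was not called, with MUT fold changes of -0.08 (interval -0.47 to 0.31) at E3.5, -0.06 (interval -1.54 to 1.42) against EPI and -0.36 (interval -1.14 to 0.42) against PrE. The intervals at E4.5 are wide and run past 1 unit of log2, a 2-fold change.

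**Figure D5:**
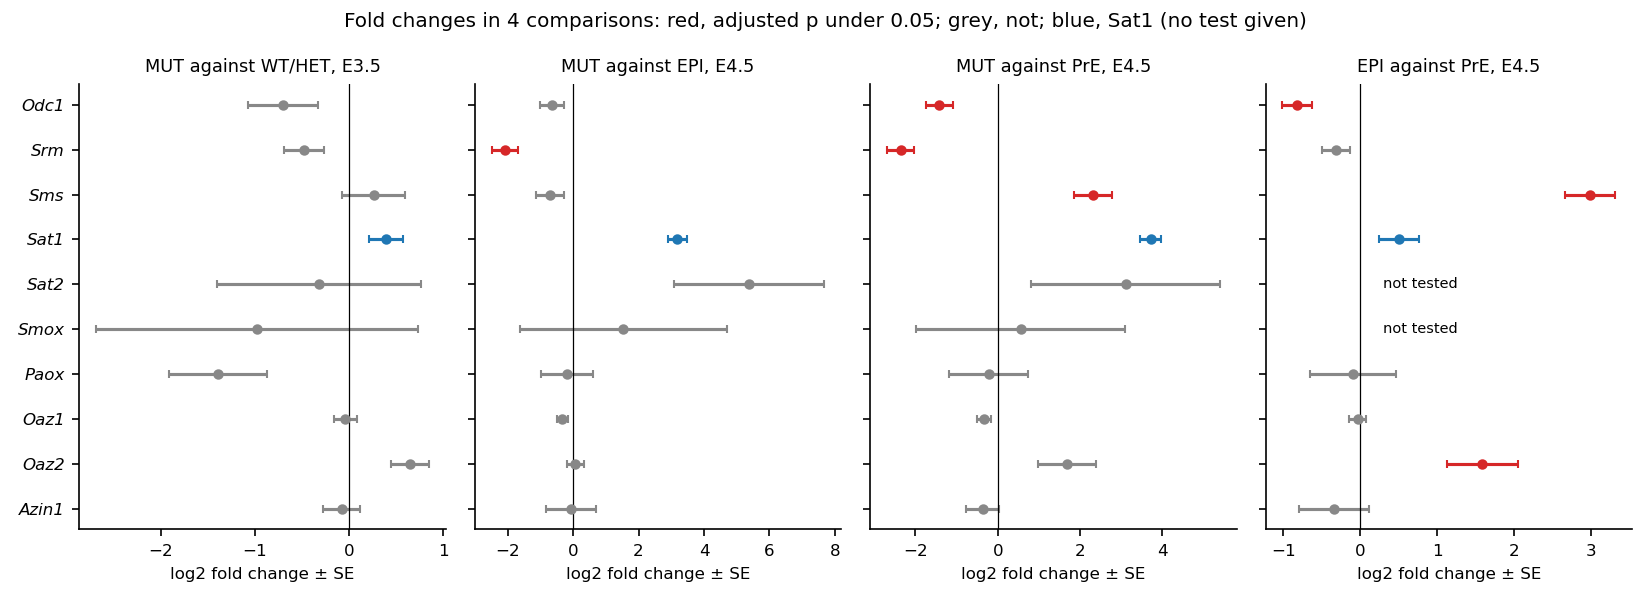
Log2 fold change with its SE (horizontal axis) of each of the 10 genes in 4 comparisons; red points have an adjusted p under 0.05, grey points do not, and blue is Sat1, for which no test is given. Srm is at -2.08 and -2.36 for E4.5 MUT against EPI and PrE, and Sms and Oaz2 are higher in EPI than in PrE by 2.99 and 1.59.

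Around these 10 genes, 30 others of the pathway were listed by role (precursor supply, methylthioadenosine salvage, hypusine formation, transport and removal, paralogues and the Myc family). At E3.5, 25 were tested and 4 were called, beside 6.18% of all genes tested. Slc3a2, the heavy chain of amino acid transporters, rose in MUT by 1.18 (SE 0.24, adjusted p = 0.0119), from 97.8 to 167 CPM in WT/HET to 147 to 396 CPM in MUT, with overlap. Mat2a, which makes S-adenosylmethionine, rose by 0.75 (SE 0.15, adjusted p = 0.0114), from 272 to 409 CPM to 518 to 675 CPM, without overlap. Myc, the transcription factor known to drive Odc1 in other cells, fell by 2.93 (SE 0.70, adjusted p = 0.0272), from 11.4 to 116 CPM to 1.97 to 9.38 CPM, without overlap. Without embryo 10, 17 or 19 the adjusted p of Myc was 0.0736, 0.0670 and 0.0541. With cells weighted equally (limma), Mat2a (adjusted p = 0.0638) and Myc (0.0847) were not called, and with WT controls alone Slc3a2 was not (0.0508). Aoc1, a diamine oxidase that degrades putrescine, had 0 counts in all 4 MUT sums and 0.343 to 22.9 CPM in WT/HET (adjusted p = 0.0142).

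At E4.5, edgeR called 0 of 23 tested pathway genes against EPI, beside 4.92% of all genes. Of these 23, 7 had an unadjusted p under 0.05, as did 2455 of all 12953 genes tested. DESeq2 called 4 (Slc3a2, Arg2, Atp13a3 and Eif5a), beside 13.2% of all genes. With cells weighted equally, limma called 4 (Arg2, Atp13a3, Azin2 and Dohh), beside 11.4% of all genes. Against PrE, 2 of 23 were called, both lower in MUT, beside 3.81% of all genes, and with WT controls alone neither was (adjusted p = 0.0792 for Oat and 0.175 for Atp13a3). Oat, which turns ornithine away from the polyamine route, lay at 46.7 and 74.3 CPM in MUT against 502 to 1080 CPM in PrE (-3.72, SE 0.42, adjusted p = 0.00134). It was also lower in EPI, at 6.61 to 37.6 CPM, than in PrE (-5.57, SE 0.42), the only 1 of 21 pathway genes called between the control lineages, beside 9.81% of all genes, and not called with WT controls alone (adjusted p = 0.170). Atp13a3, a polyamine importer, lay at 0.322 and 3.15 CPM in MUT against 38 to 71 CPM in PrE (-4.90, SE 0.98, adjusted p = 0.0247), and without embryo 2 or 8 the adjusted p was 0.0579 and 0.0609. In EPI it lay at 15.4 to 45.4 CPM, above both MUT embryos.

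The MUT effect differed between the stages for 5 of 27 pathway genes, beside 5.46% of all genes. For Slc3a2 it fell by 2.23 (SE 0.39, adjusted p = 0.00235), with 197 and 386 CPM in E4.5 MUT against 451 to 691 CPM in EPI and 513 to 777 CPM in PrE. For Atp13a3 it fell by 3.88 (SE 0.65, adjusted p = 0.00176), and for Dohh, which completes hypusine on the translation factor eIF5A, by 1.27 (SE 0.30, adjusted p = 0.0172), a call lost without embryo 3 or 8 (adjusted p of 0.0625 and 0.0896) and with WT controls alone (0.0777). For Myc it rose by 4.38 (SE 0.89, adjusted p = 0.00676), a call lost with cells weighted equally (adjusted p = 0.233). Myc lay at 54.7 and 93.4 CPM in E4.5 MUT, 6.72 to 73.8 CPM in EPI and 1.76 to 36.1 CPM in PrE. Within E4.5, edgeR called Myc in MUT neither against EPI (adjusted p = 0.385) nor against PrE (adjusted p = 0.229). Arg2, an arginase, had 0 counts in all EPI and PrE sums and 7.75 and 10.7 CPM in E4.5 MUT (adjusted p = 0.0458), and the call held with only 4 of 19 single embryos left out, the adjusted p reaching 0.0910, and was lost with no filter (0.0603), cells weighted equally (0.179) and WT controls alone (0.158).

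The genes whose level was most like that of Sat1 were found by Pearson correlation of log2 CPM over the 25 sums, among 6004 genes with a mean of 20 CPM or more. The 5 first were Slc28a3, a nucleoside transporter (r = 0.979), Smpdl3a, a phosphodiesterase (0.970), Tmem41b, a membrane protein of the endoplasmic reticulum (0.962), Pramel6 (0.960) and Alppl2, an alkaline phosphatase (0.960). The sums share plate and stage, and EPI and PrE of an embryo are among them, so these values only describe the pattern. Tmem41b had the level nearest to that of Sat1, at 2191 ± 295 CPM in E3.5 WT/HET (n = 7), 3347 ± 240 in E3.5 MUT (n = 4), 155 ± 47.0 in EPI, 172 ± 59.5 in PrE (n = 6 each) and 2529 ± 574 in E4.5 MUT (n = 2). Of the other polyamine genes, Azin1 (r = 0.739) and Sms (0.675) came nearest to Sat1, at ranks 398 and 619, and Srm (-0.893) and Oaz1 (-0.874) were among the genes most unlike it.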

How the data were processed

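Counts of 172 single ICM cells were used as the authors deposited them: raw read-pair counts per Ensembl gene from htseq-count, not normalized, after STAR alignment to GRCm38 (mm10) and the authors' own removal of inadequate cells. Read pairs in no gene (4.72%), in more than 1 gene (8.654%) or aligned to more than 1 place (32.34%) were left out. Genes with near-identical copies therefore lose reads, and overlapping genes do too. Embryo, genotype and lineage came from the labels and the study's cell list, and plates from the names of the deposited files. Of 49671 gene IDs, 49412 were matched in GENCODE M21, which gave symbols, coordinates and exon lengths, and the RefSeq windows (GRCm38.p6) gave promoters.

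Counts were summed per embryo, or per embryo and lineage at E4.5, so the embryo was the replicate. No 2 cells were identical, and the highest correlation between cells was 0.919. Sums were tested in R 4.3.3 with the edgeR 4.0.16 quasi-likelihood F test after filterByExpr and TMM, with Benjamini-Hochberg adjustment over all genes tested and a threshold of 0.05, and fold changes are MUT over control or EPI over PrE. The SE of an edgeR fold change was derived from the fitted coefficient and the F statistic of its test. Intervals are the estimate ± 1.96 SE, a normal approximation that can be too narrow with so few embryos. Shares count cells with 1 or more counts, and a second share used cells thinned to 600000 gene counts. The study tested single cells with scde, which was not used here. The tests were also run on simulated counts with known changes. Those counts had the same dispersion for every gene, so they do not show how the tests behave on these data. The 6 control embryos of E4.5 gave both lineages, and the correlations of their deviations from the lineage means ran from 0.0158 to 0.0629, each embryo correlating best with itself. Alternatives were DESeq2 1.42.0, its size factors, no filter on low counts, limma 3.58.1 on cells weighted equally, WT embryos as the only controls, each embryo left out, embryo as a replicate block, 5 counts as the detection threshold, thinning, and the longest transcript as gene length.

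The 10 genes were taken by name and the 30 other pathway genes and the markers from lists written by hand from general knowledge. Members and lists were chosen with earlier results of these data known. Named genes are these 10, pathway genes called in a comparison, and the 5 genes whose level is most like that of Sat1. DESeq2 and limma calls of pathway genes against EPI were named after their values were seen. Libraries hold PCR reads without molecular identifiers, and nothing beyond separate embryos marks separate litters, so p-values measure the spread between these embryos.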

Additional observations from a re-analysis of the deposited data

Results flagged for a closer look

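The effect of OCT4 loss on Srm differed between E3.5 and E4.5 by the interaction test on whole-ICM sums, by -1.79 on the log2 scale (SE 0.39, edgeR adjusted p = 0.0104), with 2 MUT embryos at E4.5. The adjusted p was 0.102 without embryo 3 and 0.114 with WT controls alone.

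Of 40 groups of embryos whose spread was checked, 9 held 1 embryo far from the rest. The check marks about 1 in 20 groups when values are normally distributed. A group at 0 in all embryos but 1 is always marked, so the 9 cannot be set against that rate. Sat1 reached 420 CPM in the EPI of embryo 4, where the median was 208 CPM, and Sms 48.0 CPM in the PrE of the same embryo, where the median was 21.3 CPM. Azin1 was low in the PrE of embryo 7, at 44.3 CPM beside a median of 74.2 CPM. The other 6 rest on few counts. They were Sat2 in the EPI of embryo 6 (3.96 CPM) and the PrE of embryo 7 (17.3 CPM), and Smox in E3.5 WT/HET embryo 16 (5.25 CPM), E3.5 MUT embryo 17 (2.56 CPM), the EPI of embryo 1 (14.2 CPM) and the PrE of embryo 6 (20.2 CPM).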

How the results depend on the processing

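Only 2 MUT embryos at E4.5 limit every MUT comparison there, and Sat2 and Smox are close to the detection limit. The counts of called members that follow include Sat1, from whose calls nothing is read. At E3.5, where 0 of the 10 genes were called, DESeq2 and equal weighting of cells each called 2, and leaving out an embryo gave 0 to 1. Against EPI (2 called), equal weighting called 4, WT embryos alone as controls 1, and leaving out an embryo 1 to 2. Against PrE (4 called), WT controls alone called 1, and leaving out an embryo 2 to 4. Between EPI and PrE (3 called), WT controls alone called 0 and embryo as a replicate block 2. For the interaction (2 called), WT controls alone called 1, and leaving out an embryo 1 to 2. Against EPI and against PrE, the only gene called with WT controls alone was Sat1, so no other member was called there. In the interaction with WT controls alone, Srm was not called. With WT controls alone, 2 MUT are set against 2 WT embryos at E4.5.

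Among all genes, the 746 calls at E3.5, 637 against EPI, 466 against PrE, 958 between lineages and 896 for the interaction became 1607, 1711, 1223, 1447 and 1850 with DESeq2, 1353, 1479, 1097, 1824 and 1445 with equal weighting, and 435, 48, 27, 3 and 470 with WT controls alone. Leaving out an embryo gave 482 to 882, 226 to 774, 169 to 534, 649 to 916 and 562 to 1015.

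Signs were followed for the 10 genes in every comparison, and for pathway genes and Pou5f1 only in the comparisons that called them. They turned only for differences that were not called, apart from Pou5f1 in the interaction (0.37 with equal weighting). With equal weighting these were Oaz2 against EPI (-0.18), Smox against PrE (-0.18), Paox (0.58) and Oaz1 (0.03) between lineages, and Sms (0.57) and Oaz2 (0.38) in the interaction. With WT controls they were Paox against EPI (0.39), Smox against PrE (-0.62) and Oaz1 between lineages (0.09). Azin1 against EPI was 0.01 with DESeq2 and with its size factors, and Paox between lineages 0.08 with the replicate block. With an embryo left out, signs also turned for differences that were not called. At E3.5 these were Sms (-0.11 to 0.47), Sat2 (-1.10 to 0.08), Oaz1 (-0.11 to 0.03) and Azin1 (-0.26 to 0.03). Against EPI they were Smox (-7.82 to 2.53), Paox (-1.71 to 0.56), Oaz2 (-0.06 to 0.21) and Azin1 (-0.54 to 0.31). Against PrE they were Smox (-8.54 to 2.05), Paox (-1.71 to 0.51) and Azin1 (-0.79 to 0.01). Between lineages they were Paox (-0.25 to 0.19) and Oaz1 (-0.09 to 0.01). In the interaction they were Odc1 (-1.07 to 0.09), Sms (-0.68 to 0.06), Smox (-7.02 to 8.80), Paox (-0.34 to 1.94), Oaz2 (-0.30 to 0.02) and Azin1 (-0.69 to 0.18). The causes were not tested.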
